A study of Homo sapiens with 2 samples.

Results

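The 10 genes described here encode writers and readers of histone H3 lysine 9 methylation, with a co-repressor and a remodeller that act beside them. They are the methyltransferases SUV39H1, SUV39H2, SETDB1, SETDB2 and EHMT1, the HP1 proteins CBX1, CBX3 and CBX5, the co-repressor TRIM28 and the remodeller ATRX. They were chosen by name, and each symbol matched 1 of the 57820 genes of the count table. Total RNA came from T47D, an established human breast cancer line of luminal type that grows with estrogen. Its estrogen receptor gene ESR1 had the mutation Y537S, which keeps the receptor active when no hormone is bound. Cells were transfected in hormone-deprived medium with control siRNA at 25 nM. This single group had 2 libraries, with 41370662 and 37198274 reads on genes, so no comparison between conditions was made. The mutation and the control siRNA are common to both libraries, and the labels do not say whether the line is 1 clone or whether the replicates were separate cultures. Any difference between the libraries may thus be technical. All 8 luminal marker genes were detected, led by KRT19 with 1371 and 1399 TPM. Of 10 measured markers of basal, stromal, immune and endothelial cells 1 was detected (COL1A1, 1.05 and 1.16 TPM), and their summed level was 1.18 and 1.33 TPM. CD68, CD3E, CDH5 and DCN had no reads.

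Methylation of lysine 9 marks silent chromatin. The methyl group is placed by SET-domain enzymes, and HP1 proteins bind it through their chromodomain and recruit further enzyme, so that the mark can spread. SUV39H1 and SUV39H2 act mainly at pericentromeric repeats, SETDB1 is brought to transposable elements by KRAB zinc finger proteins through TRIM28, and EHMT1 works with its partner EHMT2 on silent genes in euchromatin. ATRX, with the chaperone DAXX, deposits the histone variant H3.3 in repeats that carry the mark.

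All 10 genes were detected, which here means at least 1 CPM (reads scaled to the total on genes) in both libraries. Among nuclear protein-coding genes 60.9% passed the same limit. The genes fell into a high and a low set on the TPM scale, in which reads are divided by the summed exon length of the gene and scaled to the library. The 3 HP1 genes and TRIM28 lay between 80.7 and 161 TPM in single libraries, and the 5 methyltransferases and ATRX between 2.75 and 18.7 TPM. No library value of one set reached the other. Summed over genes, the HP1 transcripts stood 5.70-fold above those of the 5 methyltransferases in replicate 1 and 5.30-fold in replicate 2 (mean 5.50 ± 0.287, SD, n = 2). Levels given as a mean below are mean ± SD of the 2 libraries. All 10 genes had lower TPM in replicate 2, which in part reflects the scaling over all genes. Scaled over nuclear protein-coding genes only, EHMT1 had 43.98 and 43.99 TPM and SETDB1 58.7 and 60.9 TPM. The other genes were lower in replicate 2 on that scale too. The SD of a TPM thus holds the scaling of the library as well as the gene.

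**Figure D1:**
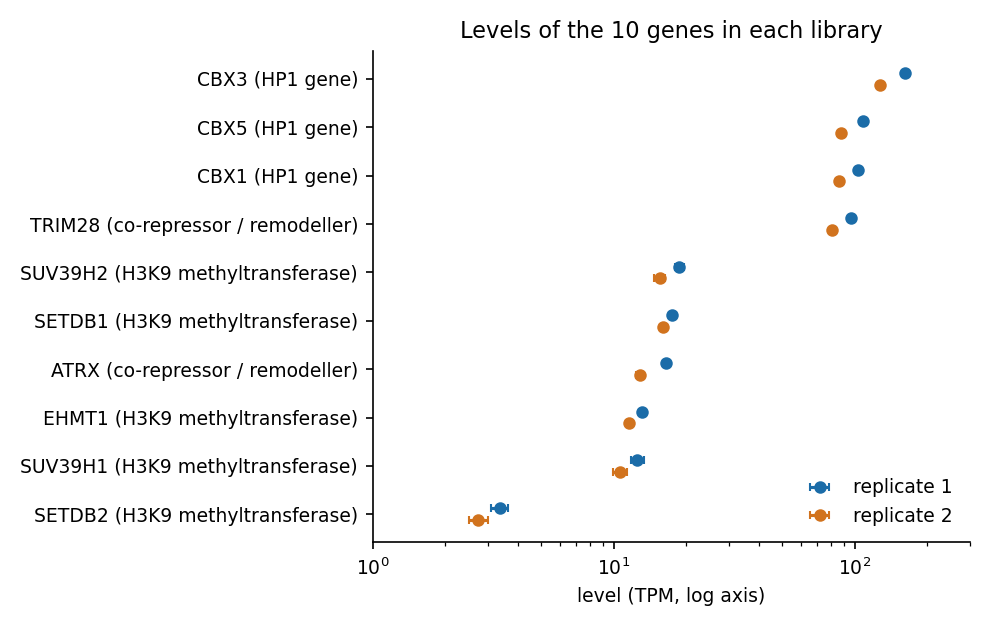
Level of each gene in the 2 libraries in TPM on a log axis; bars are exact 95% counting intervals, often smaller than the point. The HP1 genes and TRIM28 sit between 80.7 and 161 TPM, the other 6 genes at 18.7 TPM or less, and SETDB2 is lowest with 3.37 and 2.75 TPM.

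CBX3, CBX5 and CBX1 encode HP1 gamma, HP1 alpha and HP1 beta. CBX3 (ENSG00000122565.14, chromosome 7, 26240782 to 26252976, hg19) had 161 and 127 TPM in replicates 1 and 2, with exact 95% counting intervals of 159 to 163 and 125 to 129. CBX5 (ENSG00000094916.9, chromosome 12, 54624724 to 54673886) had 108 and 87.3 TPM, and CBX1 (ENSG00000108468.10, chromosome 17, 46147414 to 46178883) 103 and 85.7 TPM. CBX3 was highest of the 3 in both libraries, and the other two overlapped each other's range. Among the 11718 detected protein-coding genes CBX3 ranked 252 and 300 in the 2 libraries, CBX5 440 and 495 and CBX1 468 and 511. CBX3 held 43.3% and 42.3% of the summed HP1 TPM, CBX5 29.1% and 29.1%, and CBX1 27.7% and 28.6%.

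These shares depend on the length by which reads are divided. CBX5 has 12508 exon bases, most of them in one long transcript, since its longest principal transcript (the main protein-coding form in GENCODE release 29) is 92.2% of that length. For CBX3 the longest principal transcript is 45.9% of 4641 exon bases. With principal transcript lengths, an alternative added after seeing the data, CBX3 held 58.1% of the HP1 sum, against 42.8% with summed exon length and 30.6% with no length at all. CBX3 stood 1.47-fold above CBX5 with summed exon length and 2.96-fold with principal transcript length. In reads alone it was at 0.546 times CBX5. On neither of these length scales did CBX5 and CBX1 differ beyond the replicate spread, with a log2 ratio of 0.048 ± 0.03 in TPM and -0.18 with principal transcript length. That spread is the 95th percentile of absolute log2 differences of single genes between the libraries, taken among genes of like CPM.

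HP1 genes also have processed copies elsewhere in the genome, whose reads can be taken from or given to the parent gene. CBX3 has 10 such rows in the table, 4 of them without reads, which together held 4.12% and 4.08% as many reads as CBX3 itself. Nearly all fell on CBX3P9 (chromosome 6, 116774177 to 116774728, hg19), a single row of 552 bases with 775 and 604 reads, or 53 and 41.3 TPM. No exon of another row overlaps it, and no other row encloses it. The 5 copies of CBX1 held 0.344% and 0.414%, most on CBX1P2 with 18 and 16 reads. The single copy of CBX5, CBX5P1, had 50 and 37 reads, 0.139% and 0.128% of those of the parent. The other 7 genes have no copy row of that name.

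TRIM28 (ENSG00000130726.7, chromosome 19, 59055458 to 59062089), the co-repressor KAP1 that links KRAB zinc finger proteins to SETDB1 and HP1, had 96.1 and 80.7 TPM. It ranked 514 and 549 among detected protein-coding genes and was not set apart from CBX1 by more than that spread (log2 ratio of CBX1 to TRIM28 0.094 ± 0.011). TRIM28 exceeded SETDB1 5.49-fold (95% counting interval 5.28 to 5.71) in replicate 1 and 5.02-fold (4.82 to 5.23) in replicate 2. ATRX (ENSG00000085224.16, chromosome X, 76760356 to 77041702) had 16.5 and 12.8 TPM, and TRIM28 stood 5.83-fold and 6.30-fold above it. The size of both excesses depended on length, though each stayed beyond the replicate spread. In reads alone TRIM28 stood 2.99-fold above SETDB1 and 2.00-fold above ATRX. With principal transcript length it stood 4.41-fold above SETDB1 and 7.55-fold above ATRX.

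Among the methyltransferases, SETDB2 was lowest on every length scale used here, while the highest depended on the scale. SUV39H2 and SETDB1 were highest in TPM, and EHMT1 was highest with principal transcript length and in reads alone (127 CPM, against 41.1 CPM for SUV39H2). SUV39H2 (ENSG00000152455.11, chromosome 10, 14920819 to 14946314) had 18.7 and 15.5 TPM, and SETDB1 (ENSG00000143379.8, chromosome 1, 150898739 to 150937213) 17.5 and 16.1 TPM. Which of these was higher differed between the libraries, with a ratio of SUV39H2 to SETDB1 of 1.07 in replicate 1 and 0.964 in replicate 2. EHMT1 (ENSG00000181090.13, chromosome 9, 140513444 to 140764468), also known as GLP, had 13.1 and 11.6 TPM. SUV39H1 (ENSG00000101945.12, chromosome X, 48553945 to 48567403) had 12.5 and 10.6 TPM. SETDB2 (ENSG00000136169.12, chromosome 13, 50018429 to 50069138) had 3.37 TPM (3.11 to 3.65) and 2.75 TPM (2.51 to 3.00), from 602 and 491 reads. It lay above 22.2% of detected protein-coding genes, while SUV39H2 lay above 68.4% of them.

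SUV39H2 and SUV39H1, which are close relatives, were set apart on some scales only. In TPM SUV39H2 exceeded SUV39H1 1.49-fold in replicate 1 (1.38 to 1.61) and 1.46-fold in replicate 2 (1.34 to 1.58). The fold was 1.45 with principal transcript length and 1.56 in reads alone. By the counter's default, reads in bases that 2 genes share are given to neither. An antisense row covers 20.3% of the exon bases of SUV39H1, and DCLRE1C covers 4.46% of those of SUV39H2, so these bases add length but no reads. Divided by the exon bases that no other gene shares (2683 for SUV39H1 and 3406 for SUV39H2), an alternative added after seeing the data, SUV39H2 stood 1.23-fold above SUV39H1. Its log2 ratio of 0.30 ± 0.024 was then within the replicate spread. SETDB1 exceeded SETDB2 5.19-fold and 5.86-fold in TPM and 6.37-fold with unshared bases, since CERS2 covers 13.4% of the exon bases of SETDB1. The order of SETDB1 and EHMT1 was not fixed by the data. With summed exon length SETDB1 was 1.36-fold above EHMT1 and with unshared bases 1.54-fold, but with principal transcript length it stood at 0.742 times and in reads alone at 0.631 times EHMT1, each beyond the replicate spread. The principal transcript of EHMT1 is 33.7% of its 15257 summed exon bases.

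**Figure D2:**
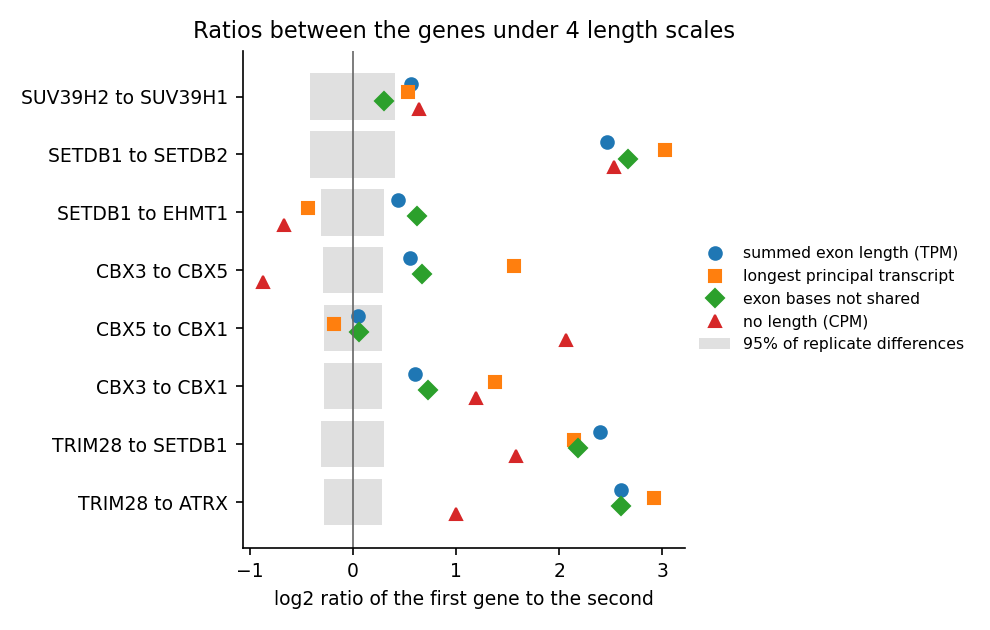
Mean log2 ratio of 2 libraries for 8 pairs of genes, computed with summed exon length (circles), with the longest principal transcript (squares), with exon bases that no other gene shares (diamonds) and with no length (triangles); grey bands hold 95% of replicate differences of single genes at like CPM. SETDB1 to SETDB2 keeps its direction beyond the band, SUV39H2 to SUV39H1 falls inside it with unshared bases (0.30), SETDB1 to EHMT1 runs from 0.62 with unshared bases to -0.66 with no length, and CBX3 to CBX5 from 1.56 with the principal transcript to -0.87 with no length.

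In order of mean TPM the 10 genes were CBX3, CBX5, CBX1, TRIM28, SUV39H2, SETDB1, ATRX, EHMT1, SUV39H1 and SETDB2. Of the 9 steps between neighbours 3 were larger than the replicate spread. These were CBX3 over CBX5, TRIM28 over SUV39H2 (5.17-fold, log2 ratio 2.37 ± 0.015) and SUV39H1 over SETDB2 (3.80-fold, 1.93 ± 0.04). The other 6 steps, CBX5 to CBX1 to TRIM28 and SUV39H2 to SETDB1 to ATRX to EHMT1 to SUV39H1, were not. From replicate 2 alone the step from SETDB1 to ATRX passed (log2 ratio 0.33), and from replicate 1 alone that from ATRX to EHMT1 (0.33). With unshared bases the step from SETDB1 to ATRX also passed (0.41), and SETDB1 lay above SUV39H2 and SUV39H1 above EHMT1, both within the spread. On all 4 scales the top 4 genes were the HP1 genes and TRIM28, in differing order, and SETDB2 was lowest. The gap between the fourth and the fifth gene was 5.16-fold in TPM, 2.88-fold with principal transcript length, 4.55-fold with unshared bases and 1.54-fold in reads alone. The ratio of summed HP1 transcripts to those of the 5 chosen methyltransferases was 5.50 ± 0.287, 5.35 ± 0.336, 5.15 ± 0.275 and 5.08 ± 0.32 on the same scales. EHMT2 is not in that sum.

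Several of these genes have the start of a gene on the other strand within 2000 bases. The share of all genes with such a neighbour was not counted, so this is not read as a trait of the 10 genes. The annotated starts of CBX5 and HNRNPA1, an RNA-binding protein gene, are 91 bases apart (hg19), and HNRNPA1 had 59.5 and 47.9 TPM. The annotated start of HNRNPA2B1, a relative of HNRNPA1, lies 367 bases inside CBX3, so that both genes share 368 exon bases (7.93% of those of CBX3). HNRNPA2B1 had 157 and 128 TPM, beside 161 and 127 TPM for CBX3. In reads alone HNRNPA2B1 was higher, with 31337 and 25598 reads against 19811 and 15609, so this likeness too depends on length. EHMT1 starts 86 bases from ARRDC1-AS1 (11.1 and 10.3 TPM), SUV39H2 134 bases from SUV39H2-DT (3.29 and 4.87 TPM), SETDB2 167 bases from CAB39L (25.2 and 14.7 TPM) and CBX1 1836 bases from SNX11 (12.8 and 9.94 TPM). RN7SL525P, a 7SL-type copy 513 bases from TRIM28, had 1 and 4 reads. For SUV39H1, SETDB1 and ATRX no start on the other strand lay within 2000 bases.

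The bases between the 4 closest divergent starts are shown because a single short stretch faces both transcription units. Each is the longest run without an annotated exon in the 250 bases before the RefSeq start of the H3K9 gene, read from RefSeq (GRCh38.p14) on the strand of that gene. Capitals mark GGGCGG or CCAAT on either strand. The stretch of CBX5 is chr12:54280134-54280192 (minus strand), that of EHMT1 chr9:137618907-137618962 (plus), that of SUV39H2 chr10:14878687-14878819 (plus) and that of SETDB2 chr13:49444127-49444273 (plus).
CBX5: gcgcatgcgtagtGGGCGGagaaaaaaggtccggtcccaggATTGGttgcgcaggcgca
EHMT1: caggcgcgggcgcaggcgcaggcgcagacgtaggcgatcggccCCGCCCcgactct
SUV39H2: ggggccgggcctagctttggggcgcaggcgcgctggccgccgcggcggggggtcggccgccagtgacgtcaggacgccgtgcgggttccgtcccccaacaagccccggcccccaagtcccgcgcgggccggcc
SETDB2: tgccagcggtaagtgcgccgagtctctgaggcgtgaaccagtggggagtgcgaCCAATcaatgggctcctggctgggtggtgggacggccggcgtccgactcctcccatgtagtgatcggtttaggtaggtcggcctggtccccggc

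In these stretches alone, CBX5 has both motifs within 59 bases, EHMT1 has GGGCGG, SETDB2 has CCAAT, and SUV39H2 has neither. RefSeq start windows of 300 bases (250 before and 50 after the most upstream start of each gene) were on hand for 8 of the 10 genes, all but TRIM28 and ATRX. GGGCGG was in 5 of the 8 windows and in 44.5% of the 27305 windows of all genes, CCAAT in 2 of 8 and in 35.7%. The windows with GGGCGG were those of SUV39H2, SETDB2, EHMT1, CBX3 and CBX5, and those with CCAAT were SETDB2 and CBX5. Windows held between 7 CG dinucleotides (SUV39H1) and 51 (EHMT1), against a median of 13 over all genes. Motif matches were counted on both strands and describe letters only.

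Next, the 2 libraries were set against each other, which compares these libraries and no conditions. The p-values cover counting error only and do not measure variation between cultures or preparations. After TMM scaling 5 of the 10 genes differed between them at an adjusted p under 0.05 (exact two-sided binomial test, Benjamini-Hochberg adjustment over 14668 genes), where 40.0% of all genes did. All 5 were lower in replicate 2, as were 20.8% of all genes. Whatever the size of the difference, 8 of the 10 genes were lower in replicate 2, where 50.6% of all genes were. For CBX3 the log2 difference was -0.17 (exact test, adjusted p = 1.95e-26), for CBX5 -0.13 (3.78e-30) and for ATRX, the widest of the 10, -0.19 (3.78e-09). CBX1 (-0.092, 0.000439) and TRIM28 (-0.076, 0.0014) followed. SETDB1 (0.053, adjusted p = 0.256 by the exact test), EHMT1 (0.00, 1), SUV39H1 (-0.064, 0.456), SUV39H2 (-0.098, 0.114) and SETDB2 (-0.12, 0.285) did not pass. No gene of the 10 differed by more than the 95th percentile of its CPM class, which was 0.28 to 0.41.

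**Figure D3:**
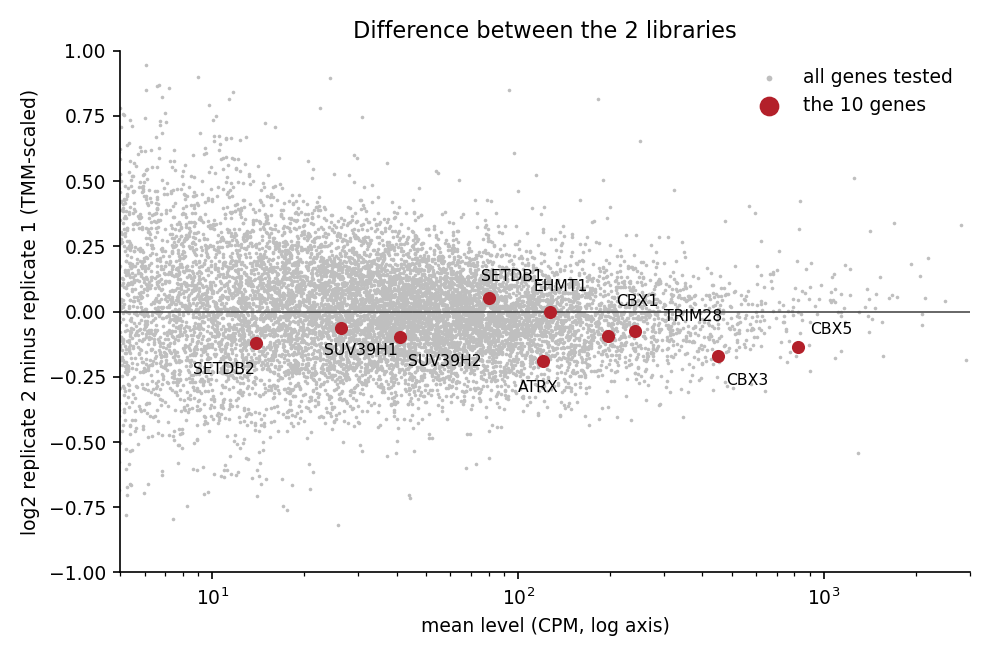
Log2 difference of replicate 2 from replicate 1 after TMM scaling, against mean CPM on a log axis, for 10919 genes between 5 and 3000 CPM (grey, 10 of them beyond the vertical limits) and the 10 genes (red). SETDB1 is above and 8 of the 10 are below the line of no difference (50.6% of all genes tested are), with EHMT1 at 0.00 and ATRX lowest at -0.19.

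The wider pathway was present with few gaps. Of 60 other genes from 10 lists of partners, antagonists and relatives 59 were matched and 56 detected, where 60.9% of nuclear protein-coding genes were. The median of the matched genes was 12.5 and 9.96 TPM in the 2 libraries. Over all nuclear protein-coding genes it was 2.42 and 2.18 TPM, and over the detected ones 9.89 and 8.61 TPM. The exceptions were EHMT2, PRDM16 and DAXX. EHMT2 and PRDM16 had no reads, for which the floor is 3 reads per library, and DAXX had 4 and 7. EHMT2 is not read as silent, because 39 of its 40 nearest protein-coding genes on chromosome 6 were also not detected and 34 of them had no reads at all. Around DAXX the same held for 29 of 40 genes, 16 of them without reads. The levels of the direct partners of EHMT1 and ATRX were therefore not read from these counts.

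Apart from EHMT2, every listed partner of SETDB1 and EHMT1 was detected. Of 6 genes of SETDB1 cofactors and the HUSH complex, which silences transposable elements, all were detected with a median of 9.31 ± 1.24 TPM. TASOR (32.6 and 24.4 TPM) and PPHLN1 (12.3 and 10.9 TPM) were highest. Besides EHMT2, the EHMT1 partner list held ZNF644 (15.2 and 13.0 TPM) and CDYL (12.6 and 10.98 TPM) as its highest genes. A list plotted as other H3K9 methyltransferases held 5 further SET-domain genes, whose activity on lysine 9 was not tested here. Of these 3 were detected, with SETMAR (7.91 and 7.34 TPM) and MECOM (3.42 and 2.45 TPM) highest. Both lay below SUV39H1, and MECOM was near SETDB2.

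All 10 HP1 partners were detected, with a median of 14.6 ± 1.42 TPM, well under the HP1 genes they bind. In reads alone CHD4 (263 and 256 CPM) lay above CBX1 (204 and 189 CPM), so this order too depends on length. The remodeller CHD4 (54.9 and 48.0 TPM) and the lamin B receptor LBR (43 and 31.3 TPM), which ties heterochromatin to the nuclear envelope, led. The Polycomb CBX genes, whose chromodomains bind lysine 27 methylation, were all 5 detected at a median of 16.4 ± 1.03 TPM. CBX2 (20.2 and 18.7 TPM) and CBX6 (18.1 and 15.6 TPM) led them and lay below each HP1 gene in both libraries. The H3.3 genes that code for the ATRX substrate stood at 119 and 106 TPM (H3-3A) and 118 and 100.4 TPM (H3-3B).

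In TPM, enzymes that remove the mark had a median close to that of the 5 chosen methyltransferases. All 11 H3K9 demethylases were present, and their median was 12.1 ± 1.08 TPM, beside 12.4 ± 1.06 TPM for these 5 methyltransferases. The median of the 5 further SET-domain genes, 2.54 ± 0.211 TPM, includes the undetected PRDM16 and EHMT2. Because the level of EHMT2 was not read from these counts, this median was not compared. The 3 detected genes, SETMAR, MECOM and PRDM2, had means of 7.63, 2.93 and 2.54 TPM. The closeness also depended on length. In reads alone the middle demethylase was KDM4A (58.7 and 59.7 CPM). The middle gene of the 5 chosen methyltransferases was SUV39H2 (42.8 and 39.4 CPM). KDM1A (36.2 and 33.4 TPM) and KDM3B (34.4 and 29.1 TPM) led the demethylases in TPM. The SUMO pathway, whose tags on TRIM28 recruit SETDB1, was higher, with all 7 genes detected at a median of 60 ± 9.42 TPM and SUMO2 at 133 and 115 TPM and SAE1 at 102 and 90.4 TPM. Of genes that connect the mark to DNA methylation, 5 of 5 matched were detected, led by the remodeller HELLS (28.7 and 20.5 TPM) and DNMT1 (21.2 and 19.8 TPM). UHRF1 was not matched by symbol. TRIM33 (12.5 and 10.9 TPM) and TRIM24 (4.69 and 3.88 TPM), the highest of the 3 relatives of TRIM28, stood well under TRIM28 itself.

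**Figure D4:**
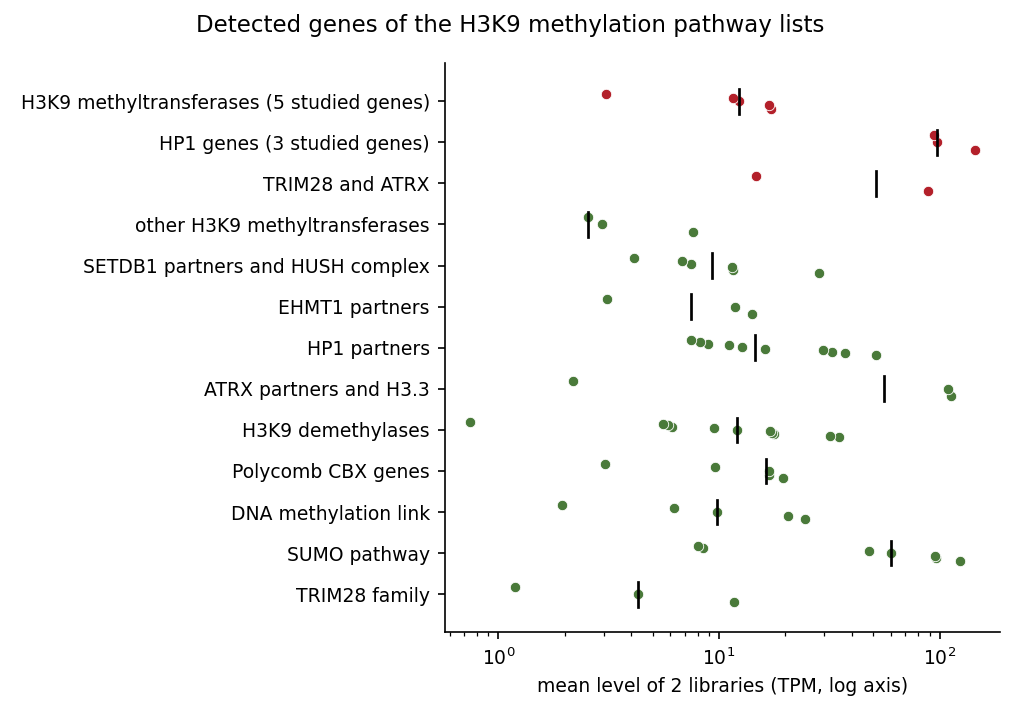
Mean TPM of 2 libraries, on a log axis, for detected genes of each list (red, the 10 genes; green, other lists); black ticks are the median over all matched genes of the list, undetected ones included. On this TPM scale the 3 HP1 genes lie right of all 10 HP1 partners, while in reads alone CHD4 lies above CBX1. The 5 methyltransferases among the 10 genes and the 11 demethylases have medians of 12.4 and 12.1 TPM. In reads alone the middle genes of these lists are SUV39H2 (42.8 and 39.4 CPM) and KDM4A (58.7 and 59.7 CPM).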

How the data were processed

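Stranded, ribosomal RNA-depleted total RNA libraries were made, per the labels' protocols. Raw counts per gene were deposited by the authors, who ran featureCounts 2.0.2 on exons of GENCODE release 19 with no strand or paired-end option, per the file headers. Without strand, reads of overlapping genes on opposite strands cannot be told apart. Per the submitters' processing notes HISAT2 and hg19 were used. Columns were matched to samples by line, receptor residue and replicate number; their names do not repeat the siRNA. Another 8 columns of per-sample values match no sample described here and were not used. A second deposited table gave only identifiers and exon lengths, which were the same for all 10 genes.

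CPM and TPM were computed over all 57820 genes; 90.5% of identifiers were named. TMM factors came from edgeR 4.0.16 and alternative size factors from DESeq2 1.42.0; tests used SciPy 1.17.1. Intervals are exact Poisson or conditional binomial 95% intervals and cover counting error only, since reads are not independent molecules. On simulated Poisson counts for 14668 genes the test of the 2 libraries recovered 58% of 50 genes raised 1.25-fold and 94% of those raised 2-fold, and called 14 unchanged genes. These simulated counts vary by counting alone, as the test assumes. They therefore check the code and cannot give the rate of false calls between real libraries, where 40.0% of genes were called. A ratio was called where both libraries' intervals lay on one side of 1 and the mean passed the replicate spread. Members and lists were chosen with earlier results of these data known. Named besides the 10 genes are the 2 highest and all undetected genes of each list, genes starting on the other strand within 2000 bases, and the processed copy with most reads per gene.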

Additional observations from a re-analysis of the deposited data

How the results depend on the processing

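Length decided most orders between genes of similar level, and the number of reads limited little except the interval of SETDB2. All 10 genes were detected at 0.5 or 5 CPM and from either library alone. Of the pathway genes 56 were detected at 0.5 CPM and 55 at 5 CPM. The CBX3 share of the HP1 sum moved from 42.8% to 30.6% in CPM, 58.1% with principal transcript length and 44.7% with unshared exon bases, and lay at 42.3% to 43.3% in single libraries. In CPM the log2 ratios turned for SETDB1 to EHMT1 (-0.66), CBX3 to CBX5 (-0.87), CBX1 to TRIM28 (-0.29), SUV39H2 to SETDB1 (-0.97), SETDB1 to ATRX (-0.58) and ATRX to EHMT1 (-0.085). All of these but ATRX to EHMT1 were beyond the spread in the new direction. Without turning, CBX5 to CBX1 (2.07) and EHMT1 to SUV39H1 (2.28) came to pass the spread. With principal transcript length, chosen after seeing the data, SETDB1 to EHMT1 (-0.43), CBX5 to CBX1 (-0.18), CBX1 to TRIM28 (-0.0031), SUV39H2 to SETDB1 (-0.47) and ATRX to EHMT1 (-1.21) turned. Of these, SETDB1 to EHMT1, SUV39H2 to SETDB1 and ATRX to EHMT1 were beyond the spread. Without turning, SETDB1 to ATRX (0.77) and EHMT1 to SUV39H1 (1.44) came to pass it. With exon bases that no other gene shares, also chosen after seeing the data, SUV39H2 to SUV39H1 (0.30) no longer passed, SUV39H2 to SETDB1 (-0.12) and EHMT1 to SUV39H1 (-0.20) turned, and SETDB1 to ATRX (0.41) passed. Only the divisor changes between these scales. From single libraries SUV39H2 to SETDB1 ranged from -0.053 to 0.098, SETDB1 to ATRX from 0.087 to 0.33 and ATRX to EHMT1 from 0.14 to 0.33. With TPM taken over nuclear protein-coding genes only, all 10 levels were higher, from 10.8 TPM (SETDB2) to 510.01 TPM (CBX3). The share of genes differing between libraries was 40.4% with library totals, 40.2% with DESeq2 size factors, 20.3% with no filter and 47.3% at 5 CPM or more; the same 5 of the 10 genes passed each time, joined by SUV39H2 with library totals (adjusted p = 0.0498, exact test). The lower calls were 3049 of 5860 with TMM and 3546 of 5928 with library totals. No paired analysis was possible because there is 1 group.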
